A study of Mus musculus with 9 samples.

Results

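Hepatocytes with a high share of albumin transcripts were described from single-cell RNA sequencing of mouse liver. In the matrix labelled CluKO, cells with at least 200 detected genes were taken as hepatocytes where Alb, Apoa1, Ttr, Fabp1, Serpina1c, Ass1 and Mup3 together made up at least 1% of the cell's unique molecular identifiers (UMIs, each 1 captured transcript). A hepatocyte was called albumin-high where Alb reached 0.6% of its UMIs and Clu stayed under 20 UMIs. The rule gave 238 albumin-high hepatocytes of 4617 cells, a share of 5.15% (95% exact Clopper-Pearson interval 4.53 to 5.83, counting error only). They were 238 of 759 hepatocytes, or 31.4% (28.1 to 34.8), beside 491 albumin-low hepatocytes under 0.6% Alb and 30 Clu-high hepatocytes with at least 20 Clu UMIs. The other 3858 cells fell outside the hepatocyte rule, and their values are given as a background.

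All mice were C57BL/6J and 6 to 8 weeks old. The series holds 9 samples in 4 groups: wild-type livers after 0, 2 and 4 weeks of injections of carbon tetrachloride (CCl4, a toxin that injures the liver), 1 sample each, and 6 samples of genotype CluKO. The CluKO mice received CCl4 together with recombinant human clusterin, the series text names 3 such mice, and neither their CCl4 duration nor the deleted part of Clu is given in the sources used here. The 6 samples share 1 matrix whose cell names carry no sample, so they count as 1 pooled sample, no group of this series can be compared with another for these cells, and no p-value is given. The wild-type matrices have unnamed rows, and their hepatocytes were not analysed here.

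Hepatocytes are the parenchymal cells of the liver. They make most plasma proteins, among them albumin, transport proteins, clotting factors and complement, and these enter the endoplasmic reticulum (ER) as they are made. During inflammation, cytokines such as interleukin-6 raise a further set, the acute-phase proteins, through the factors STAT3 and C/EBP. Hepatocytes also differ by place in the lobule: periportal cells, near the incoming blood, carry the urea cycle and gluconeogenesis, and pericentral cells, around the central vein, make glutamine and most drug-metabolising cytochromes P450.

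The matrix labelled CluKO held 28912707 UMIs with a median of 4803.5 per cell, and the 4 matrices together held 47781 cells. No cell barcode occurred more than once in it. Clu, the gene named in the genotype, was counted in 212 of the 238 albumin-high cells, by rule at no more than 19 UMIs per cell, and in 24.7% of cells outside the hepatocyte rule, so the samples are called by their label.

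The albumin-high cells held 966356 UMIs, with a median of 3258.5 per cell (2372 to 19449) and 1415.5 genes. Albumin-low cells had nearly the same depth, 3358 UMIs and 1447 genes, and after each cell was thinned to 2000 UMIs the medians were 1037 and 1054 genes. Clu-high cells were deeper, at 7779 UMIs. The median share of mitochondrially encoded transcripts was 0.128% in albumin-high, 0.0946% in albumin-low and 0.180% in Clu-high cells against 1.72% outside the rule, and 17 albumin-high cells had no such UMI. The upper quartile was 0.358%, 0.207% and 2.79% in the 3 classes, so part of the Clu-high cells lay above the outside median. The nuclear RNA Malat1 was found in 68.9% of albumin-high, 37.1% of albumin-low and 86.7% of Clu-high cells, against 97.5% outside the rule. After thinning these shares were 63.4%, 26.9%, 76.7% and 92.8%. Both measures differ between the classes, and their part in the results that follow was not tested.

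**Figure D1:**
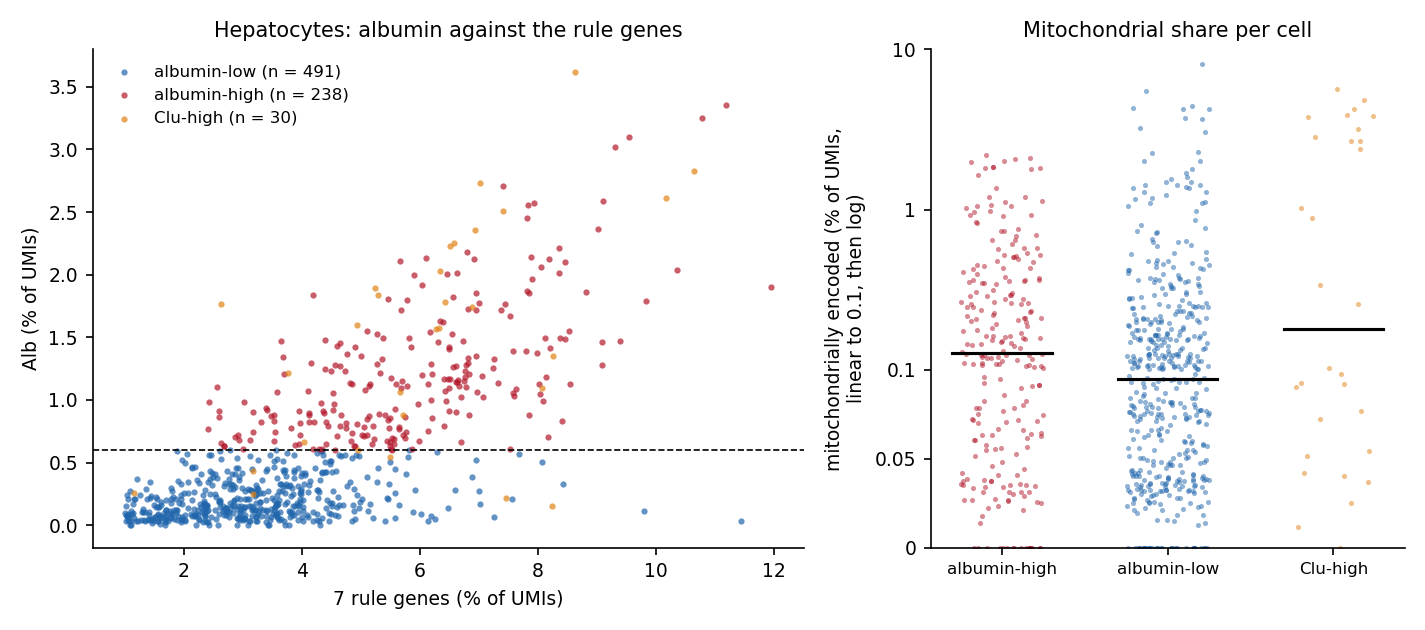
Left, each point is 1 hepatocyte, with the summed share of the 7 rule genes on the x axis and the share of Alb on the y axis, both in percent of UMIs; the dashed line is the 0.6% threshold. Right, the mitochondrially encoded share of each cell (linear to 0.1%, then log axis) with the class median as a bar. Albumin runs without a gap across the threshold, and the mitochondrial medians of the 3 classes lie between 0.0946% and 0.180%.

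The values that chose the members are a description. The share of Alb in the 238 cells ran from 0.602% to 3.36% with a median of 1.11% (quartiles 0.819 and 1.47), against a median of 0.159% in albumin-low cells and 0.00935% outside the rule. The threshold does not fall in a gap. The 57 cells just inside it, at 0.6 to 0.8% Alb, carried 2136 of Saa1 in CPM (counts per 1000000 UMIs), 1989 of Fgg and 597 of Kng1, and the 75 cells just outside, at 0.4 to 0.6%, carried 1144, 1180 and 414 CPM. Near the other limit, 39 members had 10 to 19 Clu UMIs, and 5 albumin-rich cells with 20 to 29 lay outside.

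The label was checked against markers. Of the 15 hepatocyte markers 7 are rule genes and were fixed by the choice of cells. The other 8, Saa1, Serpina3k, Fgg, Kng1, Apoc3, Ahsg, Trf and Cyp2e1, were detected in every class and outside the rule, so detection alone tells nothing. They summed to 2.54% of UMIs in albumin-high cells, against 1.00% in albumin-low cells and 0.0612% outside the rule. Saa1, Serpina3k, Fgg and Kng1 were given as markers of this class, so they are no separate check of it. Apoc3, Ahsg, Trf and Cyp2e1 stood at 4554, 4902, 4979.5 and 791 CPM in members. Outside the rule they stood at 56.2, 51.5, 387 and 4.16 CPM. Erythroid markers, mostly haemoglobin, were the exception among other cell types: they summed to 3.31% in albumin-high and 3.69% in albumin-low cells against 1.63% outside the rule. Hbb-bs was the most abundant transcript of the pooled class at 27288 CPM. A minority of cells carried this: the median haemoglobin share per cell was 0.482% in albumin-high, 0.483% in albumin-low and 0.450% in cells outside the rule. Macrophage markers summed to 0.0772% of UMIs in albumin-high cells against 2.29% outside the rule, endothelial markers to 0.00124% with Kdr, Stab2, Clec4g, Vwf and Lyve1 at 0, and T and NK cell markers to 0.00114% with 7 of 10 at 0. Stellate and fibroblast markers had 6 of 11 at 0, Lrat, Reln and Pdgfrb among them. Single cells went against this: neutrophil markers reached 17.5% of UMIs in 1 member, and haemoglobin (Hbb-bs and Hbb-bt) made up at least 5% in 25 members (10.5%) and in 58 albumin-low cells (11.8%). In 36 members (15.1%) and 95 albumin-low cells (19.3%) markers of other types reached 2% of UMIs. No doublet caller was run, and counts without these cells are given beside the results they alter.

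The 5 markers of the class were Alb, Saa1 (serum amyloid A, an acute-phase apolipoprotein), Serpina3k (a kallikrein-binding serpin), Fgg (the gamma chain of fibrinogen) and Kng1 (kininogen, the precursor of bradykinin). Alb (ENSMUSG00000029368; GRCm38 chromosome 5, 90460897 to 90476602, plus strand) was counted at 15 to 246 UMIs per member with a median of 41. Its level was 11905 CPM (exact Poisson interval 11688 to 12124, counting error only) against 2064 CPM in albumin-low and 18030 CPM in Clu-high cells. All 238 members had an Alb UMI, by rule. Outside the hepatocyte rule 53.5% of cells had one too (32.9% after thinning), at 239 CPM. Free RNA, mixed cells and cells just under the rule could each give such UMIs, and they were not told apart.

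Saa1 (ENSMUSG00000074115; chromosome 7, 46740497 to 46742980, minus strand) ranged from 0 to 70 UMIs per member with a median of 7. It stood at 2703 CPM (2600 to 2809) in albumin-high cells, 853 in albumin-low, 512 in Clu-high and 31.6 outside the rule. The Saa1 signal was thus not uniform in the class: 81.1% of members had a UMI (75.2% thinned), against 14.9% of cells outside the rule (5.96% thinned). Fgg (ENSMUSG00000033860; chromosome 3, 83007724 to 83015049, plus strand) was found in 96.2% of members at 0 to 79 UMIs (median 9), and its 2861 CPM lay between 622 in albumin-low and 3534 in Clu-high cells. Serpina3k (ENSMUSG00000058207; chromosome 12, 104338486 to 104346144, plus strand) was found in 98.7% of members at a median of 12 UMIs. It was highest in this class, at 3462 CPM against 700.1 and 1456. Kng1 (ENSMUSG00000022875; chromosome 16, 23057865 to 23082078, plus strand) was found in 89.1% of members at a median of 3 UMIs, and at 1107, 164 and 1345 CPM in albumin-high, albumin-low and Clu-high cells.

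**Figure D2:**
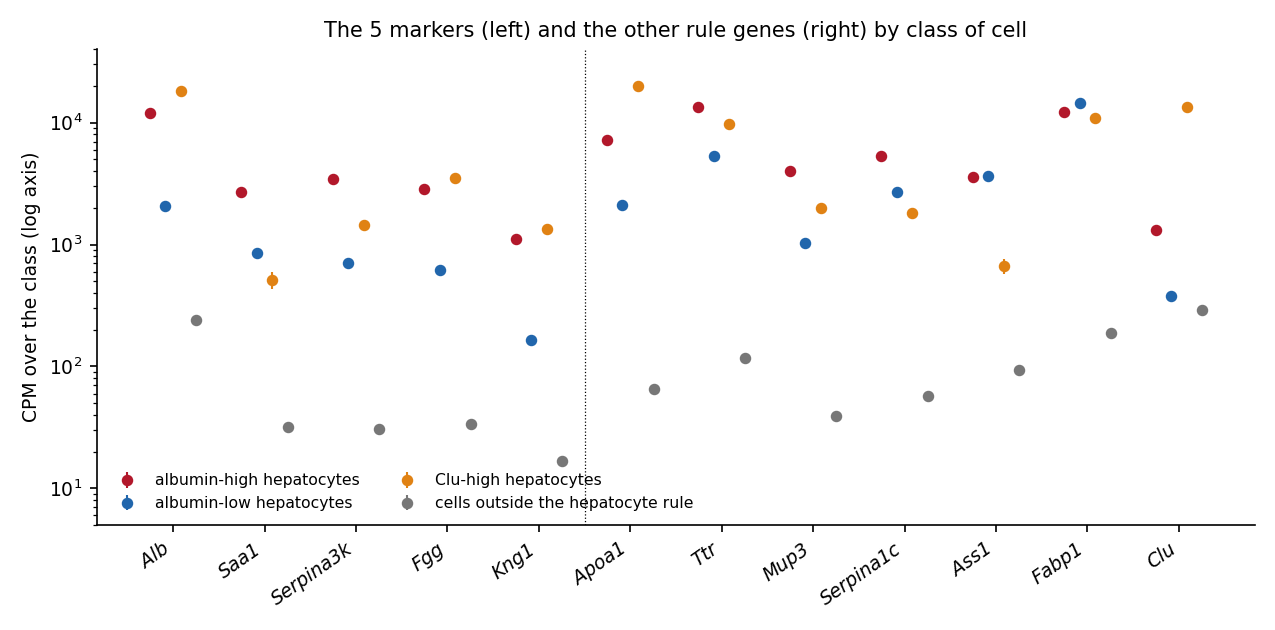
Level of each gene summed over the cells of a class, in CPM on a log axis, for the 5 markers (left of the dotted line) and the other rule genes; bars are 95% Poisson intervals, mostly smaller than the points. Saa1 and Serpina3k are highest in albumin-high cells, while Alb, Fgg and Kng1 are higher still in Clu-high cells and Fabp1 and Ass1 are nearly level between albumin-high and albumin-low cells.

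The other rule genes did not all follow albumin. Apoa1, the main protein of high-density lipoprotein, stood at 7180 CPM against 2118 in albumin-low cells, and Mup3, a major urinary protein, at 3977 against 1034. Ttr stood at 13379 against 5359 CPM and Serpina1c at 5367 against 2698 CPM. Fabp1, the fatty acid binding protein of the cytosol, was at 12339 against 14417 CPM, and Ass1, an enzyme of the urea cycle, at 3599 against 3646 CPM. Fabp1 and Ass1 both act in the cytosol. All the genes of this paragraph are summed in the hepatocyte rule, which albumin-low cells had to reach with less Alb. The choice of cells thus shapes their levels.

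Upstream sequences are shown for albumin, the 3 fibrinogen chains and both inducible serum amyloids, since their transcripts stood together at high levels in these cells. Each is the 250 bases before the RefSeq start (assembly GRCm38.p6), 5′ to 3′ on the gene's strand. Capitals mark matches on either strand to a C/EBP half-palindrome (TTGCNNAA or TTNNGCAA, in 9.56% of 32851 upstream windows of the same length), a STAT site (TTCNNNGAA, 7.02%) or an HNF1 half-site (GTTAAT or ATTAAC, 6.43%). The regions are chr5:90460620-90460869 (Alb, plus), chr3:83025903-83026152 (Fga, plus), chr3:83049864-83050113 (Fgb, minus), chr3:83007474-83007723 (Fgg, plus), chr7:46742981-46743230 (Saa1, minus) and chr7:46751583-46751832 (Saa2, plus).
Alb: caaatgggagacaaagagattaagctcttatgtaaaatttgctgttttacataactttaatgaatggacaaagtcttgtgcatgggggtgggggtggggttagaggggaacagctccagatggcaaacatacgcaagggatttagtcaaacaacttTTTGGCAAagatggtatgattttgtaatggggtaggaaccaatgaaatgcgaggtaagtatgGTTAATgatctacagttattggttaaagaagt
Fga: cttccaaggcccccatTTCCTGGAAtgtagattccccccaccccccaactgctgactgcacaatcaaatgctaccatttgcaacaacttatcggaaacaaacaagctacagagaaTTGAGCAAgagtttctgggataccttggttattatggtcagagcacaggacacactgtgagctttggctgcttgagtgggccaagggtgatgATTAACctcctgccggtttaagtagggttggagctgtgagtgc
Fgb: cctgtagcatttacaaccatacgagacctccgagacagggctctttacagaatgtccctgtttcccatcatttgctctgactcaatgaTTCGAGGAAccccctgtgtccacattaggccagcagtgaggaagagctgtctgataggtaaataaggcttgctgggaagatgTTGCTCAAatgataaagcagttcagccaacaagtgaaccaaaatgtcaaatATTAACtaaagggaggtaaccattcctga
Fgg: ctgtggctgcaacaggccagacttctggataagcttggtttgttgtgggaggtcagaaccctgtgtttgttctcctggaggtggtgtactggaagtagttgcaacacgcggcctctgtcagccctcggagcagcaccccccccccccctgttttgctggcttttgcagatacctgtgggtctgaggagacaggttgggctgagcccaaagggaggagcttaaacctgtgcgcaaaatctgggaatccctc
Saa1: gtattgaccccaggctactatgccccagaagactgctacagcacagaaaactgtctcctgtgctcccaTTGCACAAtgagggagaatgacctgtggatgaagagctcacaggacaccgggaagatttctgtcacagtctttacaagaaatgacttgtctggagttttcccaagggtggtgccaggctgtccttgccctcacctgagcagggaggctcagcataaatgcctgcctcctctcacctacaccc
Saa2: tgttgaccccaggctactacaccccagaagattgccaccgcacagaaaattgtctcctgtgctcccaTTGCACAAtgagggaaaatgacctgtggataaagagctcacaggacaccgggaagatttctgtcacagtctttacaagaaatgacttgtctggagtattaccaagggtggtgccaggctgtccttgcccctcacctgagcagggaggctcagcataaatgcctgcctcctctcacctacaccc

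The Alb window held 1 C/EBP match, 94 to 87 bases before the start, and 1 HNF1 match, 32 to 27 bases before it. Fga and Fgb each held 1 match to all 3 motifs, and the Fgg window held none of these letters. Saa1 and Saa2 each held 1 C/EBP match, and their windows were 94.8% identical (238 of 251 aligned columns, 2 of them gaps). A match is a run of letters and not a measured binding site. Serpina3k and Kng1 are named only. Because the Saa1 and Saa2 genes are so alike, reads could be split between them, and the same limit holds for the Serpina1, Serpina3, Mup and Kng families, for Hamp and for the clustered Cyp2c, Cyp2d and Ugt2b genes.

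Albumin-high were compared with albumin-low cells gene by gene to see which other transcripts differed with albumin. Since albumin divides the 2 classes, this contrast belongs to the rule and is given as a description. Of 3237 genes with at least 30 UMIs and at least 50 CPM in either class, 218 (6.73%) were at least 2-fold higher in albumin-high cells and 31 (0.958%) at least 2-fold lower, on the scale log2(CPM + 20). The median gene stood at -0.16 on that log2 scale, with 1030 genes above and 2207 below 0. The 8 rule genes are not in these counts, but the given markers Saa1, Serpina3k, Fgg and Kng1 are, here and in the lists below. The lower count depends on the setting: it was 61 with an offset of 5 CPM and 123 where only cells with a Malat1 UMI were kept.

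The 12 genes highest in albumin-high cells all encode proteins that are secreted or sit in the ER or on lipid droplets. Kng1 ranked first on the log2 scale with the offset, at 2.61, and its plain ratio was 6.74-fold (5.97 to 7.62). Kng1, Serpina3k and Fgg were given as markers of this class, so their place among the 12 is no separate result. Cyp3a11, a steroid- and drug-oxidising cytochrome P450, stood at 783 against 114 CPM, or 6.86-fold (5.94 to 7.96), and Cp, the copper carrier ceruloplasmin, at 588 against 84.9 CPM, or 6.92-fold (5.85 to 8.22). Apcs, serum amyloid P, was at 450.1 against 67.7 CPM and Pzp, an alpha-2-macroglobulin type protease inhibitor, at 709 against 116 CPM. The others were Serpinc1 (antithrombin), Fga, Itih4, Serpina3k, Hsd17b13 (a lipid droplet enzyme), Fgg and Vtn (vitronectin), with ratios from 4.60-fold for Fgg to 6.84-fold for Hsd17b13. Outside the hepatocyte rule these 12 stood at 2.37 to 54.6 CPM. Read per cell, Kng1 was found in 89.1% of albumin-high and 36.3% of albumin-low cells (76.1% and 24.8% after thinning), against 8.68% outside the rule.

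Coagulation and fibrinolysis stood higher almost throughout. Of 20 genes 15 were measured, 14 were at least 2-fold higher, none lower, and the median log2 ratio was 1.71 against -0.16 over all genes. Serpinc1 stood at 669.5 against 119 CPM, and F2 (prothrombin) at 366 against 95.6 CPM. Plg (plasminogen), which dissolves clots, was at 205 against 44.5 CPM. Proc (protein C), at 122 against 53.4 CPM, was the 1 measured member short of 2-fold. Inhibitors and activators of clotting were thus alike in direction.

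Complement gave 10 of 13 measured genes at least 2-fold higher, against 6.73% of all genes, and none lower (median 1.5). Cfi, which inactivates C3b, stood at 207 against 32.5 CPM, and C3, the central component, at 469.8 against 153 CPM. The least different was Mbl1, a mannose-binding lectin, at 127 against 71.4 CPM. Among apolipoproteins 7 of 11 were at least 2-fold higher (median 1.61), led by Apoh at 669.5 against 142 CPM. The small exchangeable ones differed least: Apoc1 stood at 8210 against 5347 CPM and Apoc3 at 4554 against 2849. Plasma carriers gave 9 of 12 (median 1.35), with Ambp at 709 against 148 CPM. Ttpa, the alpha-tocopherol transfer protein, which is cytosolic, was nearly level at 306 against 291 CPM.

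The acute-phase list gave 19 of 24 measured genes at least 2-fold higher, none lower, and a median of 1.41. The fibrinogen chains Fga, Fgb and Fgg were higher by 2.29, 2.09 and 2.17 on the log2 scale. Hp and Hpx, which bind free haemoglobin and haem, were both higher by 1.73. Serum amyloids differed less, at 1.64 for Saa1 and 1.06 for Saa2. The exceptions were Hamp, the iron hormone hepcidin, at 0.97, Lcn2 at 0.42, and 3 genes in the other direction: Saa3 at -0.66 and the metallothioneins Mt2 at -0.67 and Mt1 at -0.79. Metallothioneins are induced in the acute phase and stay in the cytosol.

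Cytochromes P450, which are anchored in the ER membrane, gave 11 of 12 measured genes at least 2-fold higher (median 1.51), against 6.73% of all genes. Cyp2c29 stood at 519.5 against 105 CPM and Cyp1a2 at 514 against 136 CPM. Cyp2e1, which activates CCl4, was the exception, at 791 against 404 CPM (log2 ratio 0.93). Conjugating and antioxidant enzymes split by place, with 3 of 18 at least 2-fold higher beside 6.73% of all genes. These were the ER-bound Ugt2b5 (2.07), Ephx1 (1.48) and Ugt2b1 (1.03), while the soluble Gstm1, Gstp1 and Gsta3 stood at -0.26, -0.27 and -0.37.

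Soluble metabolism was nearly level. Amino acid catabolism gave 0 of 19 measured genes past 2-fold in either direction, with a median of -0.06 and a range from -0.37 for Dpys to 0.52 for Aass. Bhmt stood at 4595 against 5421 CPM and Gnmt at 2158 against 2130 CPM. In the urea cycle 1 of 7 was past 2-fold, Cps1 at 227 against 93.7 CPM. Glucose and fructose metabolism gave 1 of 10, G6pc, whose product is an ER membrane enzyme, at 53.8 against 14.4 CPM. Its soluble partner Fbp1 was at 2023 against 1945 CPM. Fatty acid oxidation gave 0 of 15 with a median of -0.34, and fatty acid and sterol synthesis 1 of 5, Scd1, an ER membrane desaturase, at 554 against 141 CPM. Over all genes 6.73% were at least 2-fold higher, so 1 gene in a short list tells little.

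Of the hepatocyte transcription factors 10 were measured and 0 passed 2-fold in either direction, against 6.73% and 0.958% of all genes. Their median was -0.16, equal to that of all genes. Hnf4a, a main regulator of hepatocyte genes, stood at 116 against 131 CPM and Cebpa at 77.6 against 66.8 CPM. Cebpb, which is induced in the acute phase, was at 531 against 789.6 CPM.

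ER chaperones were also higher than in albumin-low cells. Of 16 genes of the unfolded protein response 15 were measured, 9 were at least 2-fold higher, none lower, with a median of 1.15. Hsp90b1 was at 598 against 154 CPM, Calr at 783 against 264 CPM and Hspa5 (BiP) at 690.2 against 254 CPM. Xbp1, a transcription factor of that response whose protein is not folded in the ER, was at 228 against 199 CPM. Sdf2l1 and Herpud1 also differed less, at log2 ratios of 0.34 and 0.53. Trib3, which acts outside the ER, was among the 9, at a log2 ratio of 1.15. Outside the hepatocyte rule the list stood higher than in members, at a sum of 10029 against 4224 CPM, with Hspa5 at 2157 and Hsp90b1 at 1570 CPM.

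**Figure D3:**
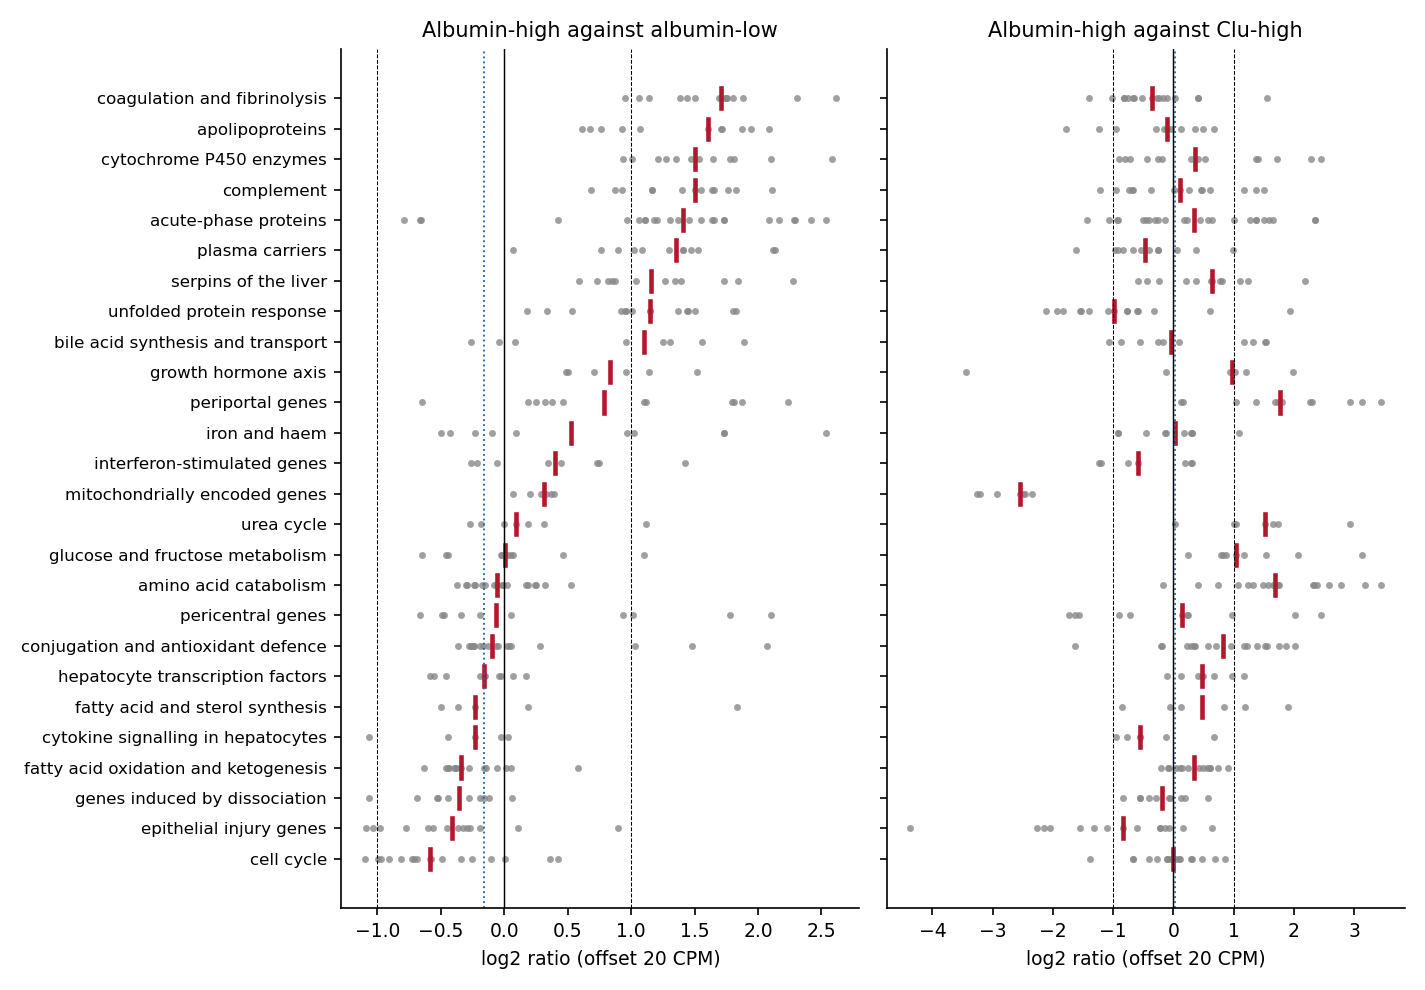
Each row is a list of genes with at least 5 measured members; points are single genes, red bars list medians, the dotted line the median of all genes and dashed lines 2-fold. The x axis is the log2 ratio of albumin-high to albumin-low cells (left) or to Clu-high cells (right). On the left the lists of secreted and ER proteins have medians of 1.15 to 1.71 and soluble metabolism lies near 0, and on the right amino acid catabolism, periportal genes and the urea cycle lie at 1.52 to 1.77.

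The genes were therefore regrouped by where their protein is made or kept, a grouping drawn up after these values had been seen. Over all genes 6.73% were at least 2-fold higher and 0.958% lower. Of 123 secreted plasma proteins 89 were measured, 68 were at least 2-fold higher and none lower, with a median of 1.46. Of 63 membrane proteins of the ER pathway 26 were measured, 22 were higher and none lower (median 1.42). Of 52 cytosolic enzymes and proteins 47 were measured, and 0 were past 2-fold in either direction (median -0.19). Of 27 mitochondrial proteins encoded in the nucleus 23 were measured, and 1 was higher (median -0.14), the carbamoyl phosphate synthase Cps1. As summed levels, the secreted group without the rule genes stood at 117030 CPM in albumin-high and 50453 CPM in albumin-low cells, the membrane group at 6745 and 2050 CPM, and the cytosolic group at 53388 and 63464 CPM.

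**Figure D4:**
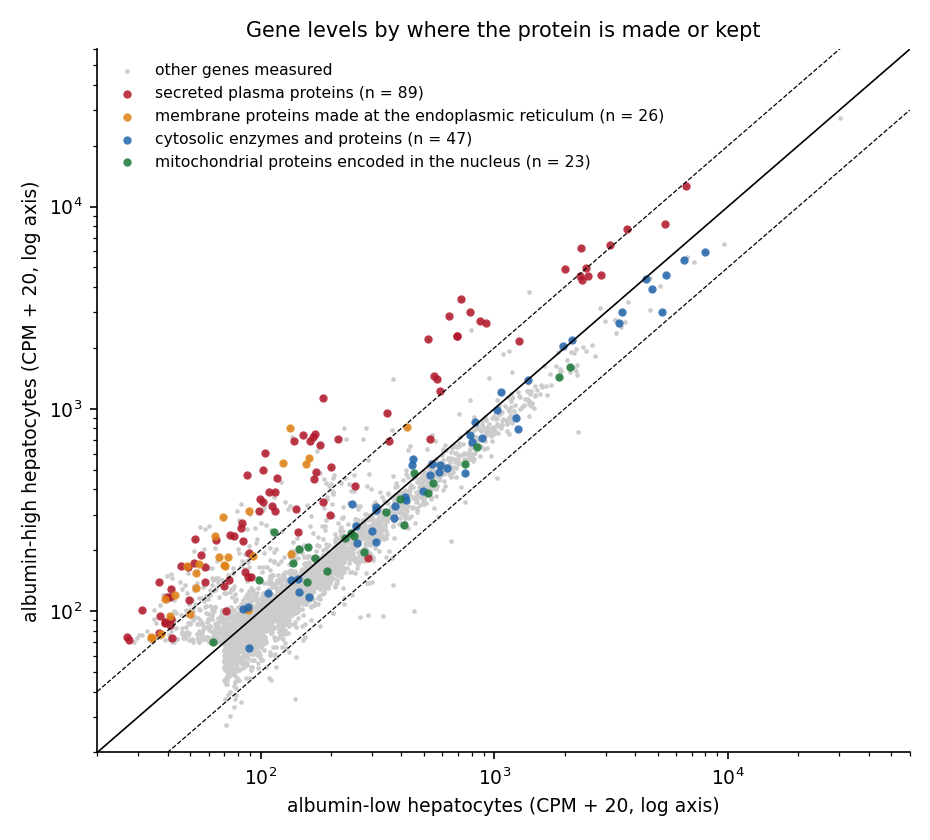
Each point is 1 of the genes measured, at its level in albumin-low (x axis) and albumin-high cells (y axis), both as CPM + 20 on log axes; the solid line is equality and the dashed lines are 2-fold. Secreted (red) and ER membrane (orange) proteins lie mostly above the upper dashed line, with medians of 1.46 and 1.42, and cytosolic (blue) and mitochondrial (green) proteins lie along equality.

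The groups were also summed in cells with and without a Malat1 UMI. Among members with a Malat1 UMI (164 cells) the secreted group stood at 118720 CPM, and among the 74 without one at 113350 CPM. In albumin-low cells the same values were 52019 CPM (182 cells) and 49280 CPM (309 cells). The cytosolic group stood at 49014 and 62886 CPM in members with and without Malat1, and at 54284 and 70334 CPM in albumin-low cells. Over all 14 other settings for cells and genes the secreted median ranged from 1.35 to 1.74, the ER membrane median from 1.12 to 1.69 and the cytosolic median from -0.30 to -0.046. The median ribosomal protein share was 5.34% in albumin-high and 7.01% in albumin-low cells, and its part in the result was not tested.

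The genes lower in albumin-high cells were few, and several belong to blood cells. Ngp, a granule protein of neutrophils, stood at 79.7 against 435 CPM and at 2630 CPM outside the hepatocyte rule. Tmsb4x, Cyba, Arhgdib, Anxa1 and Mmp8 were likewise lower by 1.09 to 1.26 on the log2 scale and stood at 144 to 10948 CPM outside. Their direction depended on which cells were kept. With at least 3% of UMIs from the 7 rule genes required, Ngp stood at 1.14, Mmp8 at 0.65, Anxa1 at 0.65, Tmsb4x at 0.60, Arhgdib at 0.61 and Cyba at 0.26, all reversed, and the lower genes numbered 7 in place of 31. With cells that reach 2% markers of other types left out it was 13. Neutrophil markers as a list summed to 0.118% of UMIs in albumin-high and 0.369% in albumin-low cells, and their part was not tested.

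Kpna2, a nuclear import factor, Top2a and Pclaf, both of dividing cells, the linker histone Hist1h1e, Gadd45g and Tmsb10 made up the rest of the 12 lowest. Kpna2 stood at 73.5 against 245 CPM, 3.34-fold lower (2.60 to 4.34). Of 17 measured cell cycle genes 1 passed 2-fold, Top2a at 64.2 against 160.1 CPM, and the median was -0.58. Cdk1 followed at 164 against 345 CPM, and Ccnb1 went the other way at 310.4 against 237.5. Epithelial injury genes had a median of -0.41 with 2 of 14 past 2-fold, S100a6 (51.7 against 132 CPM) and Lgals3 (100.4 against 227 CPM). Both are also abundant in macrophages, whose markers summed to 0.0772% of UMIs here and 0.150% in albumin-low cells, and that part was not tested.

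Clu-high cells gave a second contrast. Their Alb share had a median of 1.58% but ran from 0.150% to 3.62%, since the rule sets no albumin threshold for them. It shares the albumin-high cells with the first, so the 2 sets of values are given side by side and not related. Clu-high cells number 30 and hold 316644 UMIs, at a median of 7779 per cell against 3258.5. Since the Clu limit is a raw count, this contrast is in part set by the rule and by depth, and the part of depth was not tested. Of 3321 genes measured, 221 (6.65%) were at least 2-fold higher in albumin-high cells and 203 (6.11%) at least 2-fold lower, with a median log2 ratio of 0.03. Secreted proteins were close to level, with 16 of 93 higher, 9 lower and a median of -0.11, whose sign depended on the setting (-0.27 to 0.24). Cytosolic proteins were not: 28 of 46 were higher and none lower, with a median of 1.27 (0.66 to 1.38 over the settings).

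Amino acid breakdown stood out in albumin-high over Clu-high cells. All 20 genes of the list were measured, and 17 were at least 2-fold higher (median 1.69). Sds, serine dehydratase, led at 543 against 31.6 CPM, or 17.2-fold (9.28 to 36.1). Mat1a, which makes S-adenosylmethionine, stood at 968 against 88.4 CPM (10.9-fold, 7.52 to 16.6), and Gnmt, which consumes it, at 2158 against 297 CPM (7.27-fold, 5.91 to 9.03). Agxt, the alanine-glyoxylate aminotransferase, was at 365 against 44.2 CPM. Urea cycle genes gave 6 of 7, with Arg1 at 1196 against 139 CPM, and periportal genes 10 of 12. Pck1, the gluconeogenic enzyme, was at 460.5 against 34.7 CPM, 13.3-fold (7.34 to 26.7). Serum amyloids were higher as well, Saa1 by 2.36 and Saa2 by 2.35 on the log2 scale. Albumin-low cells had Sds at 431 and Pck1 at 733 CPM, so high levels of these genes were not particular to members. After thinning, Cyp2e1, a pericentral gene, was found alone in 19 of 30 Clu-high cells and Cyp2f2, a periportal gene, alone in 2. In members these numbers were 93 and 77 of 238, and the part of lobular zone in this contrast was not tested.

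The genes lower than in Clu-high cells were led by Spp1 (osteopontin) at 78.6 against 2110 CPM, 26.8-fold (21.1 to 34.5), and Ly6d, a surface protein, at 263 against 5814 CPM, 22.1-fold (19.4 to 25.3). Sprr1a, Igfbp1 (an insulin-like growth factor binding protein), Fn1 (fibronectin) and Cpe completed the 6 lowest. Cpe rests on 3 UMIs in albumin-high cells. Single Clu-high cells carried much of the others: 1 cell gave 294 of 668 Spp1 UMIs, 652 of 1841 for Ly6d, 172 of 337 for Igfbp1 and 108 of 203 for Fn1, which the intervals do not cover. Per cell, Ly6d was found in 26 of 30 Clu-high and 50 of 238 albumin-high cells (80% and 15.1% after thinning). Chaperones of the ER stood lower too, with 7 of 15 past 2-fold (median -0.99) and Hspa5 at 690.2 against 2706 CPM. All 7 measured mitochondrially encoded genes were lower, with mt-Cytb at 612 against 5820 CPM and a median of -2.55. These are pooled values: the median share per cell was 0.128% and 0.180%, and the upper quartile 0.358% and 2.79%. With the Clu limit at 10 UMIs, 199 and 80 cells were compared. The 39 members with 10 to 19 Clu UMIs then count as Clu-high, as do albumin-low cells with that many. The 80 cells are thus not the Clu-high class described above, and a change in counts cannot be laid to Clu alone. Of 3258 genes, 57 (1.75%) were higher and 121 (3.71%) lower. Amino acid genes then gave 9 of 19 higher (median 1.00), urea cycle genes 1 of 7 and periportal genes 3 of 12, while all 7 mitochondrially encoded genes still stood lower (median -1.99).

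The members varied among themselves. Thinned to 2000 UMIs, a member held 7 to 63 Alb UMIs (median 22) and 76 to 499 UMIs of secreted proteins outside the rule (median 230, or 11.5% of UMIs). Across the 238 cells, which share 1 matrix and 1 thinned depth, Alb counts were related to coagulation genes with a Spearman rho of 0.581, to complement with 0.524 and to the ER membrane group with 0.472. The relation was -0.132 to cytosolic proteins, 0.080 to Malat1 and -0.089 to depth. These are descriptions across cells and not tests.

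Divided into 3 by albumin share, the 80, 79 and 79 members differed in the same gene groups. Coagulation summed to 2536, 3952 and 6212 CPM in the lowest, middle and highest group, complement to 1921, 2758 and 4421 CPM and ER membrane proteins to 4937, 6672 and 8940 CPM. Cyp3a11 stood at 391, 715 and 1317 CPM. Fabp1 ran the other way, at 13498, 12247 and 11081 CPM, as did Fth1, the heavy chain of ferritin, at 7002, 6119 and 4552 CPM. The mitochondrial share also differed by group, with medians of 0.108%, 0.144% and 0.200%, and its part was not tested. The list of hepatocyte transcription factors summed to 1372, 1483 and 1081 CPM. Malat1 was near level at 2611, 2351 and 2310 CPM.

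Lobular zone divided the members too. The rule did not use its markers, though Alb and Ass1 are themselves zonated. After thinning, Cyp2e1, a pericentral gene, was found alone in 93 members and Cyp2f2, a periportal gene, alone in 77, both in 4 and neither in 64. Across members their rho was -0.507. Cells outside the hepatocyte rule had Cyp2e1 in 0.752% and Cyp2f2 in 0.855% of cells after thinning, against 40.8% and 34.0% of members. In albumin-low cells the numbers were 175 with Cyp2e1 alone, 49 with Cyp2f2 alone, 3 with both and 264 with neither. Cells with Cyp2f2 alone thus made up 77 of 238 albumin-high and 49 of 491 albumin-low cells, and both classes held cells of each kind. Cyp2f2 itself stood at 293 against 69.1 CPM, so these numbers do not give the share of periportal cells in a class. Of other periportal genes, Sds was found in 37.4% of albumin-high and 26.5% of albumin-low cells after thinning, but Pck1 in 41.6% and 52.1%. Glul, which marks the cells nearest the central vein, had a thinned UMI in 14 members (5.88%), none of them with Cyp2f2. It had one in 35.02% of cells outside the rule, 94.9% of which reached 2% markers of other types. Whether the few Glul UMIs of members give a position was not tested.

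Members with Cyp2f2 alone were compared with members with Cyp2e1 alone, a split chosen after these counts had been seen. Median depth was alike, 3134 and 3309 UMIs per cell. Of 3117 genes measured without Cyp2e1, Cyp2f2 and the rule genes, 93 (2.98%) were at least 2-fold higher and 136 (4.36%) at least 2-fold lower in Cyp2f2 cells. Periportal genes gave 8 of 10 higher and none lower, with a median of 1.89. Pericentral genes gave 5 of 9 lower and 0 higher, with a median of -1.21. The median over all genes was -0.066. The zonation lists thus followed the marker that drew the split.

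Sds led on the Cyp2f2 side, at 1018 CPM (903 to 1143) against 10.2 (2.77 to 26.1), with the ratio between 38.6 and 369.5. It was found in 61 of 77 Cyp2f2 cells and in 4 of 93 Cyp2e1 cells. Gls2, a glutaminase, stood at 358 against 48.3 CPM, and Arg1 at 1935 against 377 CPM. Hal, histidine ammonia-lyase, was at 143 against 17.8 CPM. The esterase Ces1d, the steroid dehydrogenase Hsd17b6, the urinary protein Mup21, the asparaginase Aspg, Aldh1b1 and Gas2 also stood on this side, each found in 21 to 43 Cyp2f2 cells. Hsd17b6 and Aspg rest on 1 UMI each in Cyp2e1 cells, and the 30 UMIs of Ifitm6 all lay in 1 cell. Pck1, though periportal by its list, was level at 405 against 420 CPM.

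Saa1 was among the 12 genes highest on the periportal side. It stood at 4196 CPM (3959 to 4443) in Cyp2f2 cells and 1183 CPM (1078 to 1296) in Cyp2e1 cells, 3.55-fold (3.18 to 3.96), and was found in 76 of 77 and 54 of 93 cells. Saa2 was at 1731 against 504 CPM. Other acute-phase genes differed less, with Fgg at 3952 against 2102 CPM and Hp at 2974 against 1855 CPM, and Cp was level at 616 CPM in both. Hamp went the other way, at 8620 CPM in Cyp2e1 and 1408 CPM in Cyp2f2 cells. Across all members Saa1 and Hamp were related with a rho of -0.277, while Saa1 and Saa2 gave 0.724.

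Nupr1, Trib3, Ddit3 and Asns were among the 12 genes highest on the Cyp2e1 side. Nupr1, a stress-induced nuclear protein, stood at 377 CPM against 3.58, from 148 UMIs in 40 cells and 1 UMI. Trib3 gave 88 UMIs in 27 Cyp2e1 cells and 0 in Cyp2f2 cells. That is 20.8 times a floor of 3 counts over the Cyp2f2 group, and the interval puts the ratio above 16.6-fold. Ddit3 (CHOP) stood at 196 against 7.17 CPM and Asns (asparagine synthetase) at 94.1 against 3.58 CPM. No more than 12 UMIs of Nupr1, 12 of Ddit3 and 8 of Trib3 came from 1 cell. Chaperones differed less, with Hspa5 at 898 against 559 CPM, and 6 of 15 genes of the unfolded protein response were at least 2-fold higher in Cyp2e1 cells (median -0.83). That count depended on the cells kept: it was 2 of 15 with the split made on unthinned counts and 3 of 13 in cells with a Malat1 UMI.

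Serpina7, the thyroxine-binding globulin, was found in 44 Cyp2e1 cells with 117 UMIs, 19 of them from 1 cell, and in 0 of 77 Cyp2f2 cells. That is 27.7 times the same floor, and the interval puts the ratio above 22.2-fold. Ly6d, also high in Clu-high cells, stood at 460.5 against 25.1 CPM, and Igfbp1 at 150.1 against 14.3 CPM. Oat, a pericentral aminotransferase, was at 346 against 43.0 CPM, from 34 and 9 cells, with 32 of its 136 UMIs from 1 cell. The annexin Anxa2, the tetraspanin Cd63 and the insulin-degrading enzyme Ide completed the 12. Cyp2e1 cells had Malat1 in 52.7% and Cyp2f2 cells in 80.5%, and their mitochondrial medians were 0.105% and 0.162%. With only cells that have a Malat1 UMI, 62 and 49, the lower genes numbered 80 of 2336 measured, periportal genes still gave 7 of 10 higher and pericentral genes 4 of 7 lower.

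**Figure D5:**
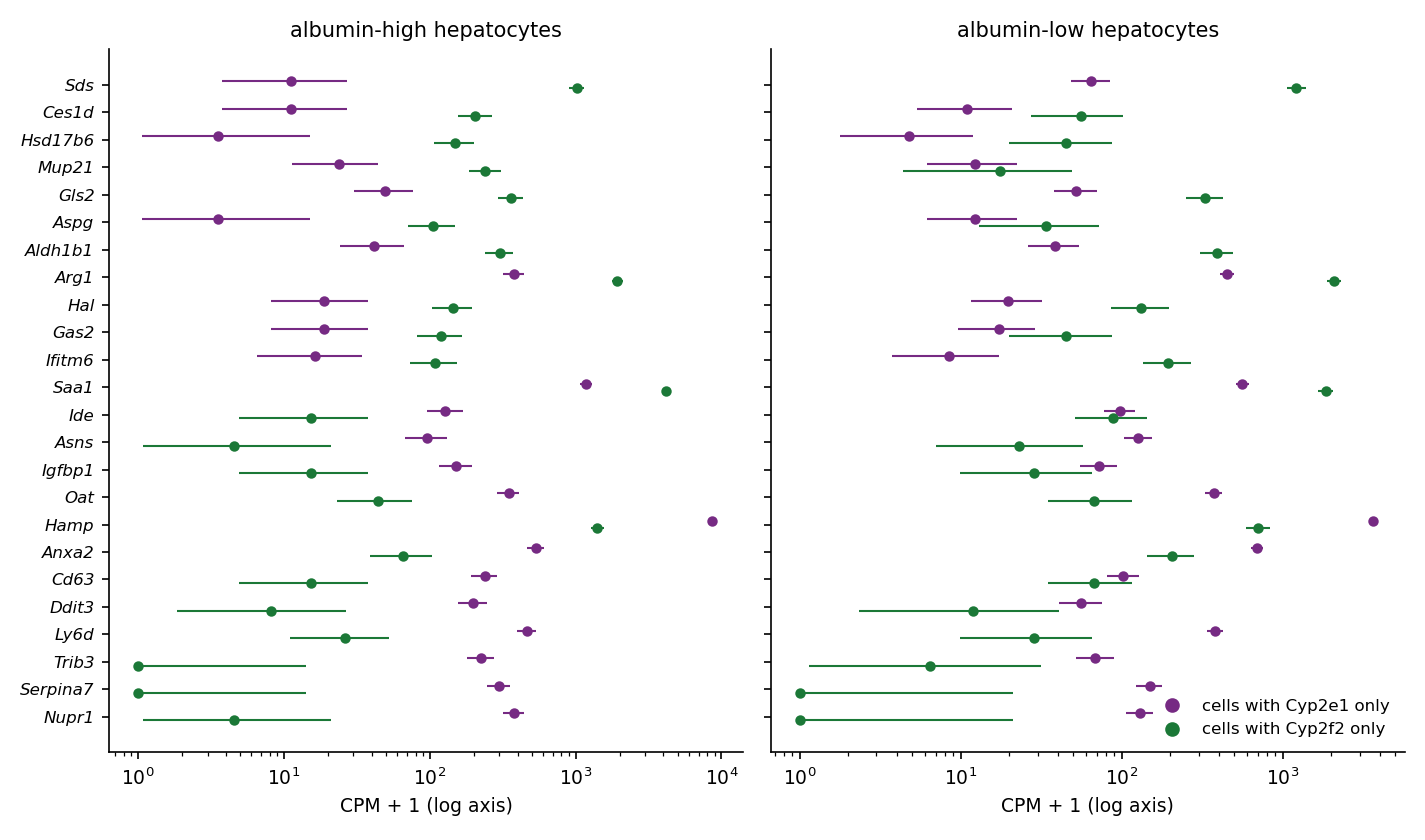
Level in CPM + 1 (log axis) of the 12 genes highest and the 12 lowest in Cyp2f2-only against Cyp2e1-only cells, in albumin-high hepatocytes (left, 77 and 93 cells) and in albumin-low hepatocytes (right, 49 and 175 cells); bars are 95% Poisson intervals. The genes were picked on the left panel, and on the right all 24 lie on the same side, 16 of the 19 measured there by at least 2-fold.

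The albumin-low cells, which had no part in picking these genes, were divided the same way. There 105 of 3258 genes (3.22%) were at least 2-fold higher and 130 (3.99%) lower in Cyp2f2 cells. All 24 genes ranked above lay in the same direction, 18 of them by at least 2-fold. Only 19 of the 24 had enough counts to be measured there, and 16 of these were past 2-fold. Ces1d, Hsd17b6, Mup21, Aspg and Gas2 were not measured. Sds stood at 1212 against 63.9 CPM, Saa1 at 1854 against 559 CPM and Hamp at 702 against 3651 CPM. Ide was close to level there, at 87.8 against 96.4 CPM. Periportal genes gave 5 of 8 higher and pericentral genes 6 of 10 lower. The unfolded protein response gave 4 of 14 lower (median -0.49), and its chaperones were mixed. Hspa5 stood at 346 CPM in Cyp2f2 and 301 in Cyp2e1 cells, and Hsp90b1 at 307 and 148 CPM, opposite to the members. Canx was also higher in Cyp2f2 cells, at 126 against 93.9 CPM. Calr was lower there, at 214 against 364 CPM, as were Dnajc3 at 32.9 against 75.2 CPM and Dnajb9 at 21.9 against 70.1 CPM. These cells come from the same pooled livers, so the likeness is between cells and not between mice.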

How the data were processed

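Livers were digested, red cells lysed and transcripts barcoded in microwells with the Singleron GEXSCOPE kit, per the labels' protocols. The matrices deposited by the authors hold UMI counts, whole numbers without normalization. GRCm38 is the build that the submitters' processing notes name. The aligner, the counter and the cell-calling rule were not given in the sources used here. Rows that share a gene symbol were summed. Positions come from GENCODE M21 and upstream sequences from RefSeq.

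For each class the counts were pooled and scaled to 1000000 (CPM), using Python 3.11.15 (numpy 2.4.6, pandas 2.3.3; intervals from scipy 1.17.1). Log2 ratios carry an offset of 20 CPM on each side. A gene was measured if it had at least 30 UMIs in both classes together and at least 50 CPM in either. Intervals are at 95% and cover counting error, not the spread between mice; with 1 pooled matrix no p-value was computed. The code that makes the calls was checked on simulated counts, drawn for a whole class without variation between cells. That check therefore does not cover genes carried by single cells. Named genes are the 5 markers, the other rule genes, the 12 highest and 12 lowest against albumin-low cells, the 6 and 6 against Clu-high cells, and members of 28 lists; mitochondrially encoded, ribosomal, immunoglobulin, haemoglobin, unnamed and other-type marker genes were left out of these rankings. The 12 and 12 of the zonal split, and the split itself, were chosen after its values were seen. Members and lists were chosen with earlier results of these data known. No doublet caller was run.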

Additional observations from a re-analysis of the deposited data

How the results depend on the processing

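Classes were recomputed under 12 planned settings and 2 added after seeing the data, only cells with a Malat1 UMI and haemoglobin under 5% of UMIs. Against albumin-low cells the higher genes, 218, ranged from 198 to 294 over the 14. The lower genes, 31, became 61 with an offset of 5 CPM, 13 with other-type markers under 2%, 7 with a hepatocyte share of at least 3% and 123 in Malat1 cells. Ngp (0.14) and Anxa1 (0.28) reversed with other-type markers under 2%; with a hepatocyte share of at least 3% Ngp (1.14), Cyba (0.26), Mmp8 (0.65), Tmsb4x (0.60), Anxa1 (0.65) and Arhgdib (0.61) did. Against Clu-high cells, a Clu limit of 10 UMIs, which moves 39 members to the Clu-high side, gave 57 higher and 121 lower genes. An offset of 5 CPM gave 305 lower. The zonal split had 6 added settings: an offset of 5 CPM gave 152 higher genes, and Malat1 cells 80 lower. The cause was not tested, beyond what each setting removes. The share of albumin-high cells, 5.15%, was 6.78% at an albumin threshold of 0.4%, 2.99% at 1%, 4.31% at the Clu limit of 10 and 24.6% of the 822 cells left with other-type markers under 2%. Of 336 values for named genes against albumin-low cells 248 stayed within the counting interval and 80 moved beyond it in the same direction; of 168 against Clu-high cells 123 and 45 did.

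No paired analysis was possible because the 6 samples are pooled in 1 matrix whose cells carry no sample name. Depth, at a median of 3258.5 UMIs per cell, limits what a cell without a UMI shows.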
